A study of Homo sapiens with 8 samples.

Results

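The interval from 42 h to 50 h of a neural differentiation under WNT3A was examined by comparing the 2 libraries taken at 50 h with the 2 taken at 42 h, 4 of the 8 libraries in the study. All 8 came from ESI017, a human embryonic stem cell line with a wild-type genotype, labelled as posterior neural fate differentiation. The cells had been plated in the stem cell medium mTeSR1 with a ROCK inhibitor and then received the neural medium N2B27 with SB at 10 µM and LDN at 100 nM. WNT3A protein was added at 300 ng/mL at the 34 h time point, so the 42 h cells had 8 h of WNT3A and the 50 h cells 16 h, and both groups carried SB and LDN throughout. Libraries at 34 h, before WNT3A, and at 72 h complete the series, and each replicate number is also labelled as a batch. No culture without WNT3A was analysed here, so WNT3A and the passing of 8 h cannot be told apart. The libraries are bulk poly(A) RNA from 1 cell line, and fewer cells of a type cannot be told apart from less RNA per cell.

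WNT proteins bind Frizzled receptors with the co-receptors LRP5 and LRP6, which stops the breakdown of β-catenin by a complex of AXIN, APC and GSK3. β-catenin then acts with transcription factors of the TCF/LEF family on target genes, several of which encode inhibitors of the same pathway and so close a negative feedback loop. In the early nervous system WNT signals favour posterior over anterior fates, and forebrain cells are those that see the least WNT.

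Few genes were called between 42 h and 50 h, which does not show that few changed. Values are TPM, an abundance corrected for transcript length and scaled to the same total in every library. Differences are on the log2(TPM + 1) scale, where those of weakly expressed genes come out too small. After leaving out genes that did not reach 1 TPM in 2 or more of the 8 libraries, 14908 were tested and 14 (0.0939%) were called at an adjusted p under 0.05 by limma, a linear model fitted to all 8 libraries with Benjamini-Hochberg adjustment over all tested genes. Of these, 9 (0.0604%) rose and 5 (0.0335%) fell. At an unadjusted p under 0.05 there were 1394 genes (9.35%), 767 higher (5.14%) and 627 lower (4.21%) at 50 h. If no gene had changed, 745 would be expected by chance. With the replicate number as a block, 7 genes (0.047%) were called, 4 higher (0.0268%) and 3 lower (0.0201%), and all 7 were among the 14. With 2 libraries a time, values that did not overlap between 42 h and 50 h were common: 5561 of the tested genes (37.3%) were apart in this way, and few of them were called. The share of higher calls, 64.3% of the 14, was 47.4% of 19 calls after trimmed-mean (TMM) rescaling and 45% of 20 after quantile normalization. The calls rest on the spread estimated from all 4 time points: with the 42 h and 50 h libraries alone 0 genes were called by limma and 1089 had an unadjusted p under 0.05. The same fit called 384 genes (2.58%) between 34 h and 42 h, where 1.78% rose and 0.792% fell, and 1093 (7.33%) between 50 h and 72 h, where 2.92% rose and 4.41% fell.

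Libraries from the 2 times were nearly as alike as replicates of 1 time. Over the 10810 genes with a mean of at least 5 TPM, the median absolute log2 difference was 0.151 between the 42 h replicates and 0.185 between the 50 h replicates. Between 42 h and 50 h it was 0.157 in replicate 1 and 0.157 in replicate 2, and 0.172 and 0.208 when the replicate numbers were crossed. The median log2 change from 42 h to 50 h was 0.034 over these genes, and 96.9% of them had group means less than 1.5-fold apart. In each library 13860 to 14004 genes reached 1 TPM, and genes of the mitochondrial genome held 8.70% to 11.2% of the TPM, 9.72% and 11.2% at 42 h and 8.70% and 10.3% at 50 h.

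A gene was taken as steady when it had a mean of at least 5 TPM over the 4 libraries and the 95% interval of its log2 change lay within 1.5-fold in either direction. By this rule 7246 of 10810 genes (67.0%) were steady, and they held 88.9% of the summed TPM of the 4 libraries. With a 2-fold band 10187 genes (94.2%) were steady. The remaining 3553 genes at this level were neither steady nor called. Over all genes at this level the 95% interval reached a median of 0.346 to either side of the log2 change. That width is for 1 gene at a time, without adjustment for many tests. The smallest absolute change of a called gene was 0.84. No called gene was steady. The plot of change against mean level shows the steady genes as a band that narrows with the level and the called genes outside it.

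**Figure D1:**
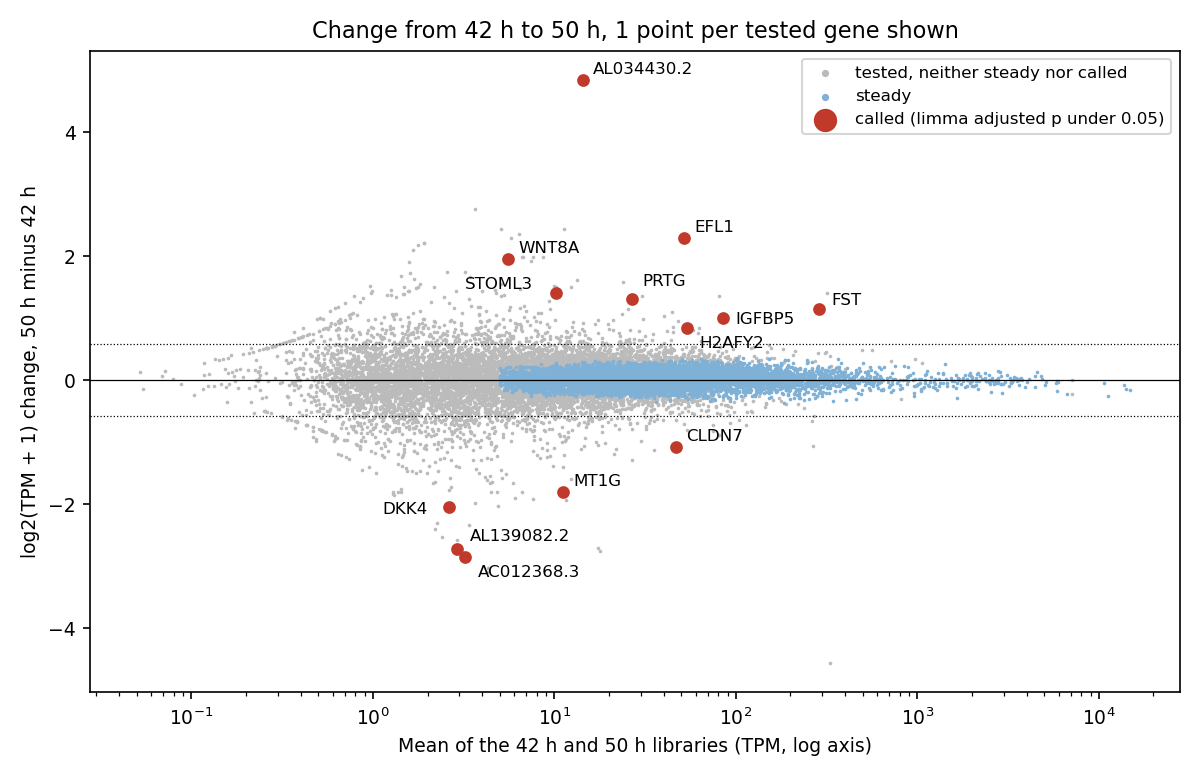
Change from 42 h to 50 h on the log2(TPM + 1) scale against the mean TPM of the 4 libraries (log axis), 1 point per gene shown, with dotted lines at 1.5-fold. The 7246 steady genes (blue) lie along 0, and the called genes shown (red, named) lie at an absolute change of 0.84 or more. Grey points as far out were not called.

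The steady class, 67.0% of genes with at least 5 TPM, held the machinery that every cell uses. All 19 cytosolic ribosomal protein genes of the list were steady, with log2 changes from -0.09 to 0.12 and a median of 0.03, against 0.03 over all tested genes. Of 12 housekeeping genes 11 were steady: EEF1A1, the translation elongation factor, read 10774 and 11034 TPM at 42 h, then 10021 and 11102 at 50 h. B2M, the light chain of MHC class I, was the exception, with 130 and 149 TPM at 42 h, then 106 and 114 at 50 h (log2 change -0.34 ± 0.14, SE). Of 24 respiratory chain genes 23 were steady, the 13 nuclear ones with a median of 0.03 and the 11 mitochondrial ones with a median of -0.15. Among 16 glycolytic enzymes and transporters 13 were steady. PFKP, the platelet form of phosphofructokinase, was outside the band with 67.4 and 72.8 TPM at 42 h, then 49.6 and 45.3 at 50 h, and it was not called (-0.55 ± 0.10, adjusted p = 0.108).

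Cell cycle and replication genes were also mostly steady, 24 of the 30 with at least 5 TPM, against 67.0% of all genes at that level. Their median change was 0.08, with no call among 31 tested. PCNA, the sliding clamp of DNA replication, read 399 and 397 TPM at 42 h, then 412 and 399 at 50 h. MKI67, which marks cycling cells, read 41.5 and 50.1 and then 57.5 and 56.3 (0.31 ± 0.11, steady by the rule although the groups did not overlap). Of 17 Polycomb and DNA methylation genes, 11 of the 15 at 5 TPM or more were steady, among them EZH2, the histone H3 lysine 27 methyltransferase, with 73.5 and 81.7 TPM and then 77.3 and 87.6. Matrix and integrin genes had 13 steady of 17, and this list and the Polycomb list were near the share of all genes. LAMB1, a laminin chain of the basement membrane, read 78.5 and 69.9 TPM and then 83.7 and 72.4.

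**Figure D2:**
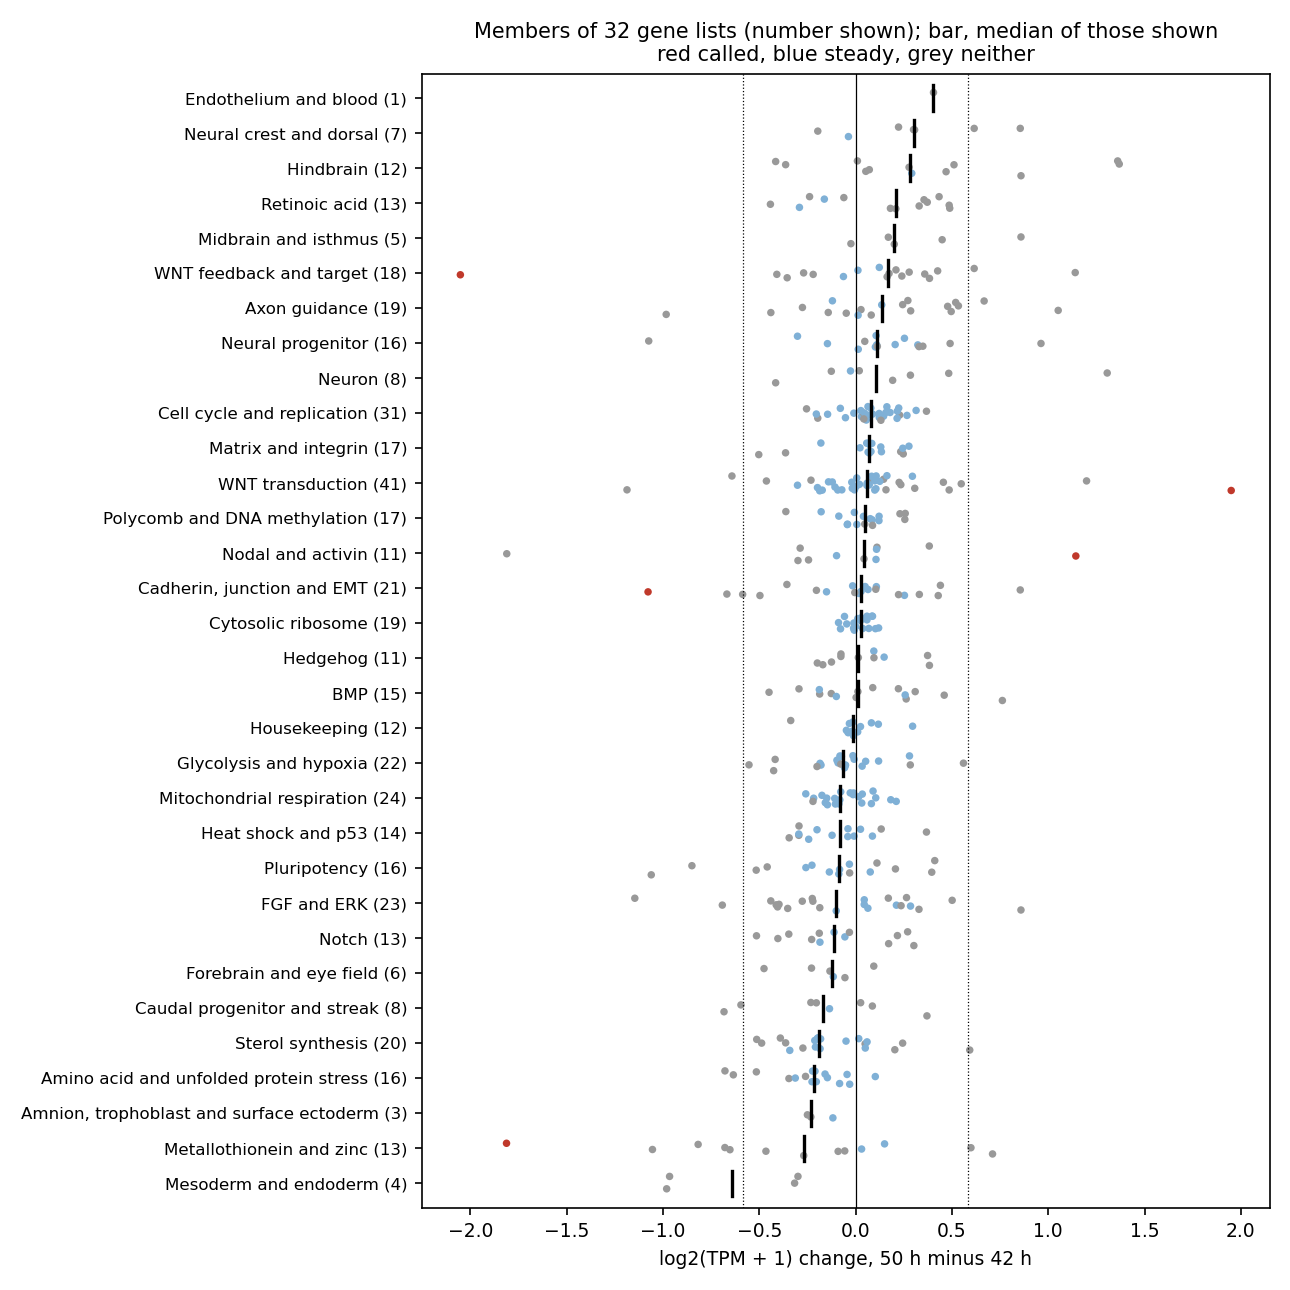
Log2 change from 42 h to 50 h of tested members of 32 gene lists, 1 point per gene (red called, blue steady, grey neither), with black bars at the median of the members shown, dotted lines at 1.5-fold and the number shown beside each name. Ribosomal, respiratory and cell cycle lists are narrow and mostly steady, and WNT8A, FST, DKK4, MT1G and CLDN7 stand apart in the WNT, Nodal, metallothionein and adhesion lists.

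Inside the WNT pathway the intracellular machinery was mostly steady. All 32 lists together held 6 called genes among 462 tested, 3 higher, with WNT8A and FST among them, and 3 lower (DKK4, MT1G and CLDN7). Over all genes tested 14 of 14908 (0.0939%) were called. The lists were chosen with earlier results of these data known, so a larger share in them is not a result. Among 15 cytoplasmic and nuclear components of WNT transduction 14 were steady, against 67.0% of all genes with at least 5 TPM. Their changes ran from -0.20 to 0.23. CTNNB1, which encodes β-catenin, read 367 and 284 TPM at 42 h, then 365 and 289 at 50 h (0.01 ± 0.15). In both times replicate 1 was the higher of the pair, and the groups overlapped.

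Of 14 WNT receptors 11 had at least 5 TPM, and 8 of the 11 were steady, near the 67.0% of all genes at that level. FZD7, the Frizzled receptor with the highest TPM in these cells, read 379 and 384 TPM at 42 h, then 387 and 378 at 50 h. FZD1, another Frizzled, read 3.76 and 3.70 TPM and then 10.2 and 9.54, with no overlap, and missed the threshold (1.2 ± 0.18, adjusted p = 0.0639; 0.0446 to 0.360 over 19 alternatives, called in 1 of them, the fit without a variance trend). ROR2, a receptor used by WNT5A, read 32.7 and 29.2 TPM and then 56.2 and 37.1 and was not called (0.55 ± 0.20, adjusted p = 0.440). No receptor of the list was called.

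Of 6 tested WNT ligands 1 was called. It was WNT8A, a ligand of the canonical pathway (chr5:138083892-138092365, plus strand, GENCODE 29 on GRCh38 as for all genes here), which read 2.12 and 1.26 TPM at 42 h, then 11.2 and 7.63 at 50 h. Both 50 h libraries lay above both 42 h libraries, and 72 h read 49.4 and 45.8. In log2 units WNT8A rose by 1.95 ± 0.23 (limma adjusted p = 0.0357, and 0.0388 with the replicate block; 0.0191 to 0.295 over 19 alternatives). These ranges, here and for the other genes, leave out the test against a change of 1.5-fold, where AL034430.2 was the only call and the other called genes had adjusted p-values from 0.0785 to 1. WNT10B, also a canonical ligand, read 30.1 and 29.7 TPM and then 14.1 and 11.2, with no overlap, and missed the threshold (-1.19 ± 0.19, adjusted p = 0.0745). WNT5B, a ligand of β-catenin-independent signalling, was steady at 52.9 and 42.1 and then 49.6 and 43.9 TPM. The gene for WNT3A itself was at most 0.160 TPM in these 4 libraries. WLS, the carrier that WNT ligands need for secretion, was chosen after its values were seen: 50.8 and 38.6 TPM at 42 h, then 130 and 102 at 50 h (1.36 ± 0.21, adjusted p = 0.0745).

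WNT feedback and target genes, moved mainly in the first 8 h of WNT3A. Of 18 tested, 11 had risen from 34 h to 42 h, and the list median was 1.85 for that step and 0.17 for 42 h to 50 h, against 0.01 and 0.03 over all tested genes. From 42 h to 50 h 0 rose and 1 fell by limma, 2 were higher and 1 lower at an unadjusted p under 0.05, and 3 of the 11 with at least 5 TPM were steady. Over all tested genes 1.78% had risen by 42 h, and from 42 h to 50 h 0.0604% rose and 0.0335% fell. At an unadjusted p under 0.05, 5.14% were higher and 4.21% lower, and 67.0% of genes with at least 5 TPM were steady. SP5, a zinc finger repressor and direct β-catenin target, read 182 and 146 TPM at 42 h, then 226 and 149 at 50 h, from 0.255 and 0.106 before WNT3A. The 2 groups overlapped, and its interval was too wide to call it steady (0.17 ± 0.20). Its promoter window is shown because it holds the most TCF/LEF cores of the pathway and called genes that had a window, 3 in 250 bases. It covers chr2:170715087-170715336 on the plus strand (RefSeq, GRCh38.p14), and capitals mark the letters CTTTGAA, and likewise CTTTGAT and likewise CTTTGTT, on either strand.
SP5: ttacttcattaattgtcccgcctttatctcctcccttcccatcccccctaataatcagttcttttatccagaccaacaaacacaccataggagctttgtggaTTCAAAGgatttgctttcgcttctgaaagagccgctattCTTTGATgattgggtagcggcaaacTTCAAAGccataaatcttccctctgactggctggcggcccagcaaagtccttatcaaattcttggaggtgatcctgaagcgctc
Of 35116 windows of this length 9.97% held at least 1 such core and 0.0797% at least 3. Windows were found for 19 of 32 WNT feedback and called genes. Besides SP5, only DKK1, TCF7 and STOML3 had a window with a core, and those of FST, WNT8A and APCDD1 held none. A match describes the letters and is not evidence of binding.

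AXIN2, the scaffold of the β-catenin destruction complex and a target of the pathway, read 101 and 85.9 TPM at 42 h, then 98.5 and 90 at 50 h and was steady (0.01 ± 0.15). LEF1, a partner of β-catenin on DNA, read 47.8 and 53.4 and then 49.7 and 47.0 and was steady too (-0.06 ± 0.15). CCND1, which encodes cyclin D1, was the third steady member at 301 and 246 and then 341 and 257 TPM. The membrane inhibitor APCDD1 read 19.7 and 12 TPM and then 36.2 and 34.2. Its groups did not overlap, but the replicates at 42 h were apart and it was not called (1.14 ± 0.27, adjusted p = 0.229).

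DKK4, a secreted inhibitor that binds LRP5 and LRP6 (chr8:42374068-42377232, minus strand), was the feedback gene that fell. It read 0 and 0.101 TPM at 34 h, then 5.19 and 4.49 at 42 h, 0.412 and 0.399 at 50 h and 0 in both libraries at 72 h. Only the 42 h libraries were above 1 TPM, so DKK4 passed the filter on low values only through the time at which it was high. For 42 h to 50 h limma gave -2.05 ± 0.25 with an adjusted p of 0.0375, and the call was lost with the replicate block (adjusted p = 0.0854; 0.00565 to 0.319 over 18 alternatives). With no filter on low values it was called too (adjusted p = 0.0103), and with a mean of at least 5 TPM required it was not tested.

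Both steps, 34 h to 42 h and 42 h to 50 h, lasted 8 h, and their difference was tested gene by gene. They share the 42 h libraries, so a 42 h value that strays moves both. The steps differed for 58 genes (0.389%), 55 with a smaller or opposite change after 42 h (0.369%) and 3 with a higher one (0.0201%). Of the 58, 54 had risen by 42 h, 17 were steady from 42 h to 50 h, and 38 had a mean at 50 h below that at 42 h. Among genes with at least 5 TPM, the most negative differences were those of SP5 (-6.95, adjusted p = 0.000208), GBX2 (-5.11, 0.000246), GAD1 (-4.81, 0.0290), WNT10B (-4.70, 0.00128), WNT5B (-4.43, 0.00371), NODAL (-4.40, 0.00726), EVX1 (0.00566), NKD1 (-4.05, 0.0357), AC012368.3 (0.0335) and NKX6-1 (-3.54, 0.0132). No size is given for EVX1 and AC012368.3, listed at 0 in both libraries of 34 h and of 50 h respectively. The rule ranked only genes with a mean of at least 5 TPM at 34, 42 or 50 h, which left out DKK4 (-4.53, 0.00726). The 3 in the other direction were UTRN, ABCA1 and AL034430.2.

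**Figure D3:**
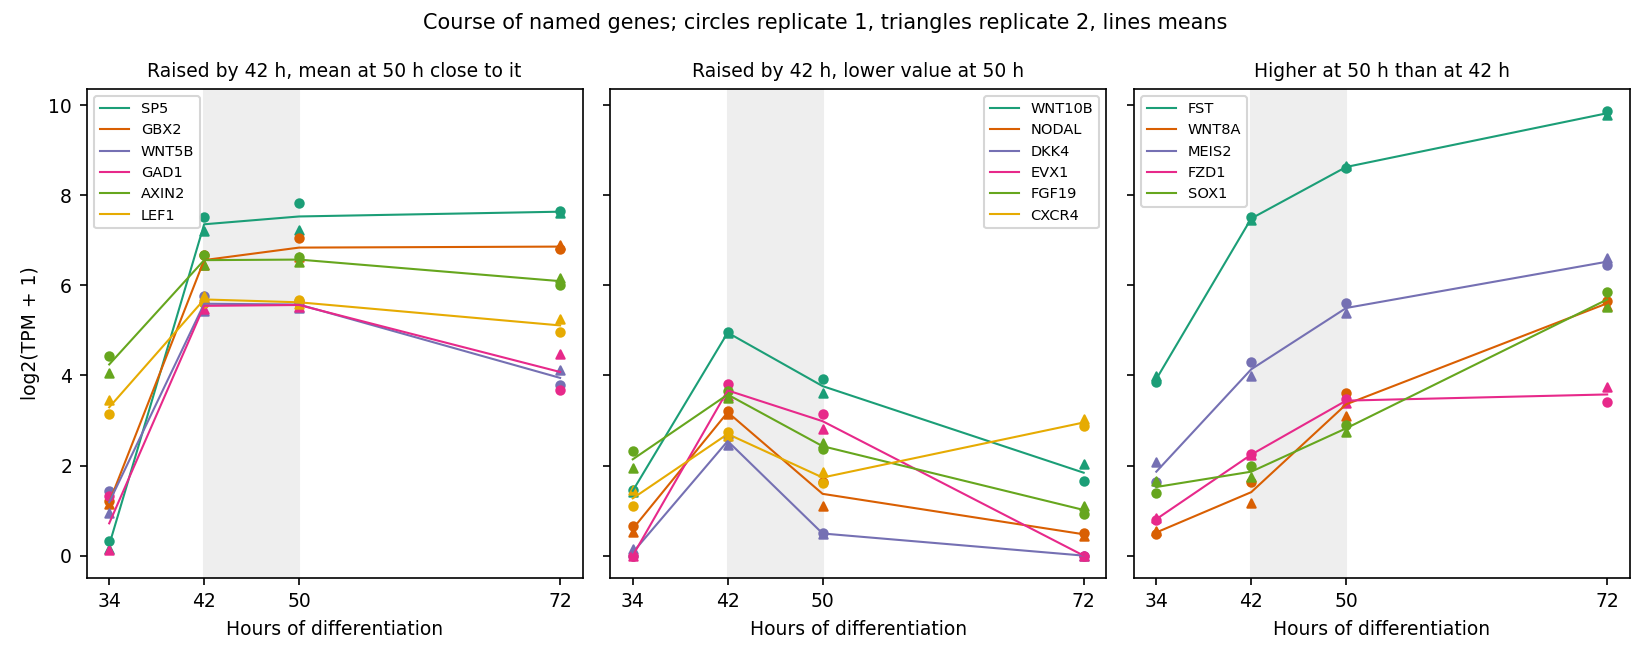
Level of named genes at 34, 42, 50 and 72 h as log2(TPM + 1), circles for replicate 1, triangles for replicate 2 and lines for means, with 42 h to 50 h shaded. SP5, GBX2, WNT5B, GAD1, AXIN2 and LEF1 (left) climb before 42 h and have log2 changes from -0.06 to 0.28 after it, with WNT5B, AXIN2 and LEF1 steady by the rule; WNT10B, NODAL, DKK4, EVX1, FGF19 and CXCR4 (middle) have a lower mean at 50 h, where DKK4 was the called gene; FST, WNT8A, MEIS2, FZD1 and SOX1 (right) are higher at 50 h, where FST and WNT8A were called.

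Of the genes that changed in the 42 h to 50 h step, FST had the highest level. FST encodes follistatin, a secreted protein that binds activin and BMP ligands (chr5:53480409-53487134, plus strand). It read 181 and 175 TPM at 42 h, then 391 and 399 at 50 h, from 13.4 and 14.8 at 34 h and on to 933 and 877 at 72 h. Each time lay clear of the others. The rise was 1.14 ± 0.08 (limma adjusted p = 0.00542, and 0.0103 with the replicate block; 0.00169 to 0.182 over 19 alternatives), smaller than the step before it (3.57, difference -2.42, adjusted p = 0.000558). FST was the only call among the 11 tested members of the Nodal and activin list. NODAL, a ligand of that pathway, read 8.32 and 7.84 TPM at 42 h, then 2.10 and 1.16 at 50 h, without overlap, just short of the threshold (-1.81 ± 0.25, adjusted p = 0.0511). It was called in 3 of 18 alternatives (0.0338 to 0.359), those with trimmed-mean rescaling (0.0475), without a variance trend (0.0338) and with robust moderation (0.0455). The type I receptor gene ACVR1B was steady at 21.6 and 21.8 and then 23.8 and 23.0 TPM. LEFTY1 and LEFTY2, Nodal inhibitors and targets, were listed at 0 in all 4 libraries.

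Several hindbrain genes had higher values at 50 h and missed the threshold. MEIS2, a HOX cofactor, read 18.7 and 14.7 TPM and then 47.5 and 41.1, without overlap (1.36 ± 0.18, adjusted p = 0.0511; 0.0308 to 0.359 over 19 alternatives, called in 2 of them). IRX1, a homeobox gene of the Iroquois family, read 34.2 and 29.4 and then 65.5 and 51.9 TPM (0.86 ± 0.17, adjusted p = 0.149). GBX2, which marks the anterior hindbrain side of the midbrain boundary, read 102 and 85.9 and then 132 and 97.8 TPM, overlapping between the times (0.28 ± 0.16). HOXA3 was listed at 0.0501 and 0.367 TPM and then 3.01 and 1.39, and HOXB1 at 0.0548 and 0.197 and then 0.688 and 0.434. EGR2, a gene of rhombomeres, read at most 1.02 TPM in the 4 libraries and 46.9 and 38.7 at 72 h.

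Forebrain and caudal genes gave no call. OTX2, a forebrain and midbrain homeobox gene that fell from 34 h to 42 h, was steady at 40.3 and 48.8 and then 33.0 and 50.5 TPM (-0.12 ± 0.20). SIX3, RAX and EMX2, which mark the forebrain and eye field, did not exceed 0.426 TPM in the 4 libraries. Of 6 tested genes of this list 1 was lower and 0 higher at an unadjusted p under 0.05. EMX1, a forebrain homeobox gene outside the list, was chosen after its values were seen. It read 9.94 and 13.3 and then 5.12 and 3.73 TPM (-1.22 ± 0.35, limma adjusted p = 0.323). Of 8 tested caudal progenitor and primitive streak genes, 6 had risen by 42 h and 0 were called between 42 h and 50 h, with 1 lower at an unadjusted p under 0.05. Over all tested genes 1.78% had risen by 42 h. Between 42 h and 50 h 0.0939% were called and 4.21% were lower at an unadjusted p under 0.05. NKX1-2, a caudal epiblast gene, was steady at 147 and 133 and then 133 and 122 TPM. TBXT, the gene of brachyury, read 11.4 and 7.92 and then 9.62 and 6.83 TPM. CDX2, a caudal homeobox gene, read 8.92 and 6.47 and then 5.94 and 6.73 TPM, with overlap in both cases. EVX1 read 12.9 and 10.6 and then 7.88 and 6.06 TPM without overlap (-0.68 ± 0.22, adjusted p = 0.393).

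Of the other genes that rose, PRTG, IGFBP5 and H2AFY2 rose again from 50 h to 72 h, and STOML3 read 24.9 and 20.7 TPM at 72 h (adjusted p = 0.107 for that step). PRTG, an immunoglobulin superfamily receptor of the early neural plate (chr15:55611546-55743090), read 13.9 and 16.1 TPM and then 40.5 and 36.9 (1.31 ± 0.15, limma adjusted p = 0.0357; 0.0643 with the replicate block). IGFBP5, a secreted binding protein for insulin-like growth factors (chr2:216672105-216695525), read 59.1 and 52.9 and then 126 and 101 TPM (1.00 ± 0.12, adjusted p = 0.0375; 0.0335 with the block). It had read 58.7 and 55.8 TPM at 34 h, and the means of 34 h and 42 h differed by -0.03 on the log2 scale. H2AFY2, a macroH2A histone variant also called MACROH2A2 (chr10:70052796-70112280), had the smallest called change, 40.0 and 36.6 and then 71.4 and 67.7 TPM (0.84 ± 0.10, adjusted p = 0.0357; 0.0558 with the block). STOML3, a stomatin-like membrane protein (chr13:38965925-38991066), read 5.51 and 4.84 and then 16.1 and 14.4 TPM (1.40 ± 0.17, adjusted p = 0.0410; 0.0813 with the block). Over 19 alternatives their adjusted p-values ranged from 0.0191 to 0.259 for PRTG, 0.0191 to 0.359 for IGFBP5, 0.0191 to 0.328 for H2AFY2 and 0.0308 to 0.359 for STOML3.

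EFL1 and AL034430.2 rose from 42 h to 50 h and fell from 50 h to 72 h. EFL1, a GTPase that matures the large ribosomal subunit (chr15:82130230-82262763), read 13.2 and 15.4 TPM at 34 h, then 14.4 and 18.5 at 42 h, then 113 and 61.6 at 50 h, and 72 h gave 17.1 and 15.9. The 50 h replicates were far apart but both stood above the other 6 libraries (2.28 ± 0.26, adjusted p = 0.0357; 0.0613 with the block, 0.0143 to 0.269 over 19 alternatives). AL034430.2, a short annotated protein-coding gene of unnamed function (chr20:10420546-10420737), was listed at 43.4 and 57.7 TPM at 34 h and 20.8 and 36.7 at 50 h, and at 0 in all libraries of 42 h and 72 h (adjusted p = 0.00112; 0.00125 with the block, 0.000266 to 0.155 over 19 alternatives). It lies within MKKS on the same strand. MKKS read 23.1 and 17.3 and then 17.3 and 24.1 TPM, overlapping between the times. How reads were divided between overlapping models is not given in the sources used here. No fold is given for a gene listed at 0 in both libraries of a time.

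The plot of the called genes shows these courses side by side.

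**Figure D4:**
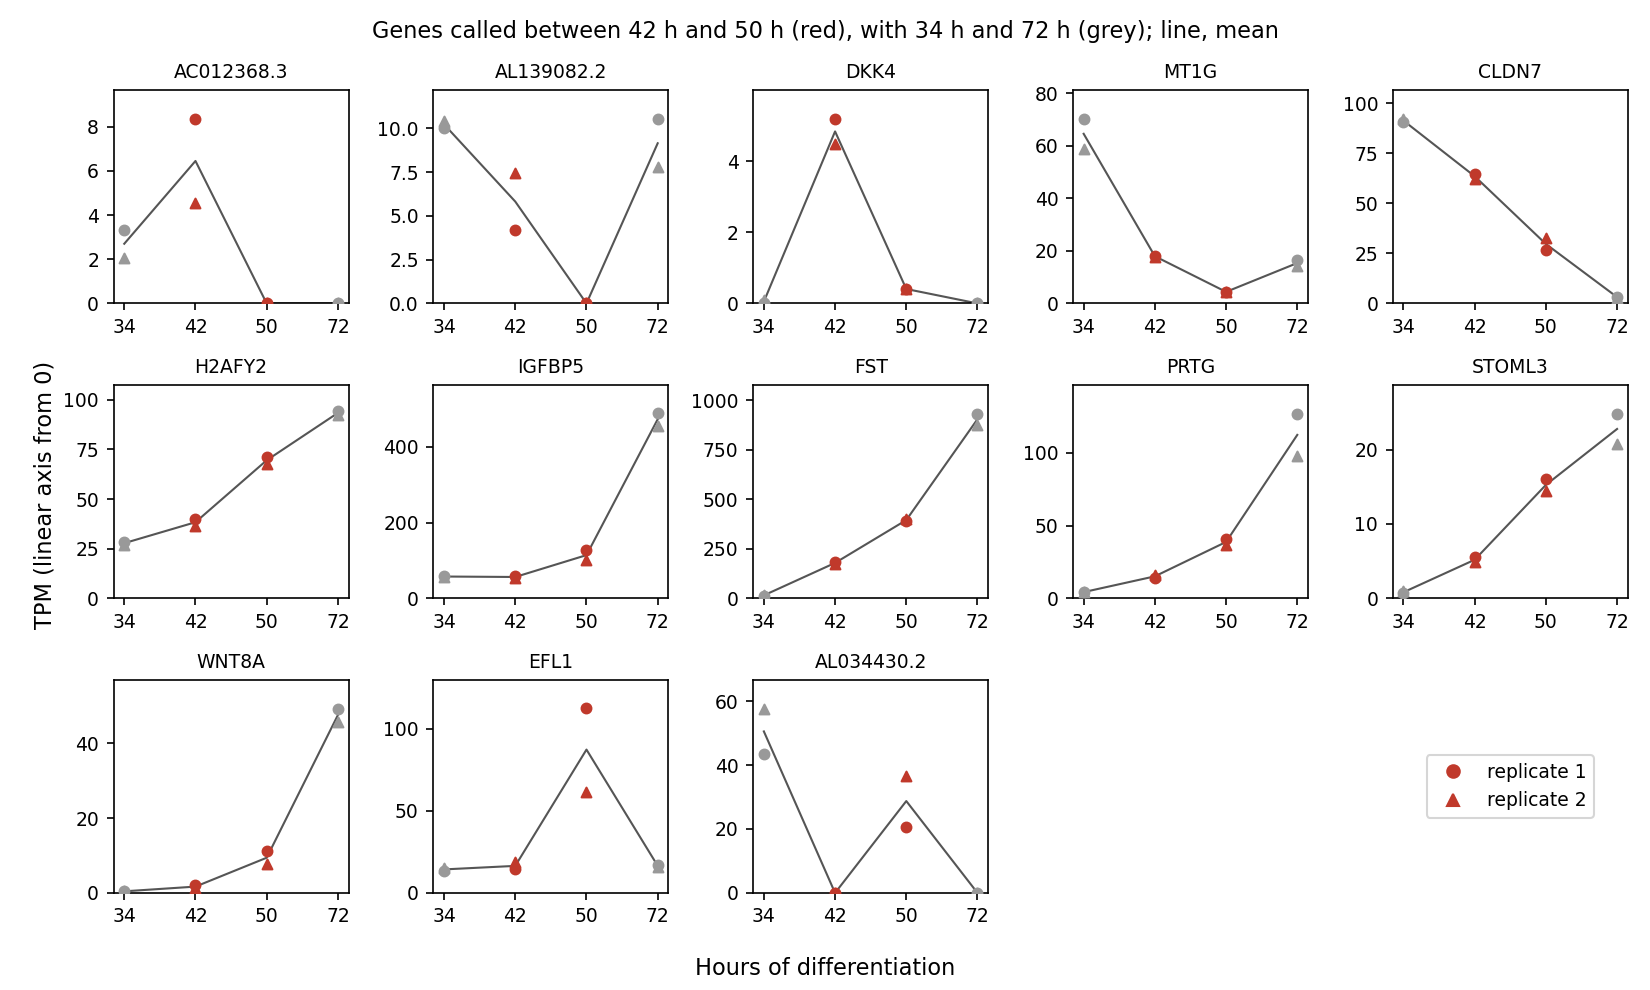
TPM of each called gene shown against hours of differentiation (the 4 times evenly spaced), on linear axes from 0 that differ between panels, circles for replicate 1, triangles for replicate 2, red at 42 h and 50 h, grey at 34 h and 72 h, lines for means. FST, PRTG, IGFBP5, H2AFY2, STOML3 and WNT8A have their highest means at 72 h, CLDN7 its lowest, and EFL1, AL034430.2, AL139082.2, MT1G and DKK4 change direction.

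Of 8 tested metallothioneins 7 had a lower mean at 50 h than at 42 h, and 1 fell. These small cysteine-rich proteins bind zinc and copper, and the transcription factor MTF1 raises their genes through metal response elements when free zinc is high. By limma 1 member was called and 4 were lower and 0 higher at an unadjusted p under 0.05, with a median of -0.67 against 0.03 over all tested genes. Of all tested genes 6590 of 14908 had a lower mean and 0.0335% were called lower. At an unadjusted p under 0.05, 4.21% of them were lower and 5.14% higher. The promoter windows of MT2A, MT1H and MT1X are shown because these 3 of the measured members had a window with several metal response element cores. The windows are chr16:56608334-56608583, chr16:56669564-56669813 and chr16:56682220-56682469, all on the plus strand (RefSeq, GRCh38.p14), and capitals mark TGCACNC, and likewise TGCGCNC, on either strand.
MT2A: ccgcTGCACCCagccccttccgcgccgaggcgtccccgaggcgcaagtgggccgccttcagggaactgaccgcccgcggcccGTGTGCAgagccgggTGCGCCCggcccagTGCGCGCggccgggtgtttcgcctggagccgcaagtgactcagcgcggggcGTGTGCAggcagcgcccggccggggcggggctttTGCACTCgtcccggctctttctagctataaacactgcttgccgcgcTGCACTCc
MT1H: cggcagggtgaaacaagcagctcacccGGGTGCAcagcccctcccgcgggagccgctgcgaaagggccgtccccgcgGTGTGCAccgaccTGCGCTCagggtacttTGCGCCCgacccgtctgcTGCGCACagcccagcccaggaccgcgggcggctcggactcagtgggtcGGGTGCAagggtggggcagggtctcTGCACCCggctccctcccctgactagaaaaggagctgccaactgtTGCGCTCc
MT1X: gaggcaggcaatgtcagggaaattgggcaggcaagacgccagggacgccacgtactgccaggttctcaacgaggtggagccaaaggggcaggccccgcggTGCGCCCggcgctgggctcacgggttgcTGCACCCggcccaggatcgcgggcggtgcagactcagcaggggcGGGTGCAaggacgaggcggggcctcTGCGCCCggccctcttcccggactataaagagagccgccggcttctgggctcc
The counts of cores were 7 in MT2A, 8 in MT1H and 4 in MT1X. Of 35116 windows of 250 bases 24.8% held at least 1 core and 1.58% at least 3. Only 4 of 10 metal genes had a window, and MT1G, the called member, had none. Here too a match is not evidence of binding. 

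MT1G was the metallothionein that fell (chr16:56666731-56668065, minus strand). It read 70.4 and 58.8 TPM at 34 h, then 18.1 and 17.9 at 42 h, then 4.43 and 4.36 at 50 h, and 72 h gave 16.6 and 14.1. The replicates of 42 h and of 50 h lay close together and the times far apart (-1.81 ± 0.14, limma adjusted p = 0.00542, and 0.0103 with the replicate block; 0.00169 to 0.214 over 19 alternatives). The step before was of the same size (-1.78, difference -0.03). MT2A, the member with the most TPM, read 98.8 and 92.6 and then 52.9 and 54.8 (-0.82 ± 0.11, adjusted p = 0.0511), and was called after the trimmed-mean rescaling (0.0420) and quantile normalization (0.0389), 2 of the 5 settings that called it (0.0308 to 0.359 over 19 alternatives). MT1F read 25.8 and 22 and then 12.8 and 9.32 TPM (-1.05 ± 0.17, adjusted p = 0.0897). MT1H read 6.0 and 8.09 and then 4.14 and 4.01 TPM (-0.65 ± 0.20, adjusted p = 0.347). MT1X read 48.1 and 38.3 and then 44.3 and 28.3 TPM, overlapping between the times (-0.27 ± 0.22). None of the 5 zinc transporters and sensors was called. SLC30A1, a zinc exporter that MTF1 also controls, read 4.87 and 4.75 and then 4.75 and 4.44 TPM. The sequences of near-identical metallothioneins can share reads, so the division between members is uncertain.

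CLDN7 fell, and some other epithelial genes had lower means without a call. CLDN7, a tight junction claudin (chr17:7259903-7263983, minus strand), read 90.3 and 92.1 TPM at 34 h, then 64.7 and 62.2 at 42 h, then 26.9 and 32.4 at 50 h, and 72 h gave 3.44 and 2.86. Each time lay below the one before without overlap. In log2 units CLDN7 fell by 1.08 with an SE of 0.13 (limma adjusted p = 0.0379), and the call was lost with the replicate block (adjusted p = 0.0813; 0.0191 to 0.328 over 19 alternatives). It overlaps ELP5 on the other strand, which read 93.7 and 78.1 and then 93.5 and 74.1 TPM. Of 12 epithelial genes 8 had a lower mean, 1 fell, 4 were lower at an unadjusted p under 0.05, 5 were steady and 0 rose, with a median of -0.18. By 72 h 9 of the 12 had fallen against 50 h. Over all tested genes 6590 of 14908 had a lower mean, 0.0335% fell and 4.21% were lower at an unadjusted p under 0.05. Of genes with at least 5 TPM 67.0% were steady, and 4.41% of tested genes fell from 50 h to 72 h.

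EPCAM, an epithelial adhesion molecule, read 325 and 317 TPM at 42 h, then 185 and 220 at 50 h (-0.67 ± 0.14, adjusted p = 0.163). CDH1, which encodes E-cadherin, read 132 and 151 and then 95.1 and 105 TPM (-0.50 ± 0.11, adjusted p = 0.193). ESRP1, an epithelial splicing regulator, read 74.9 and 78.2 and then 49.4 and 51.9 TPM (-0.59 ± 0.10, adjusted p = 0.109). None of the 3 was called. CLDN6, the claudin with the most TPM here, was steady at 973 and 851 and then 1056 and 911. CDH2, the N-cadherin gene, was steady at 31.6 and 37.6 and then 40.1 and 42.6 TPM after rising from 34 h to 42 h. VIM, an intermediate filament of mesenchymal and neural progenitor cells, read 230 and 299 and then 370 and 343 TPM (0.44 ± 0.17, adjusted p = 0.467).

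**Figure D5:**
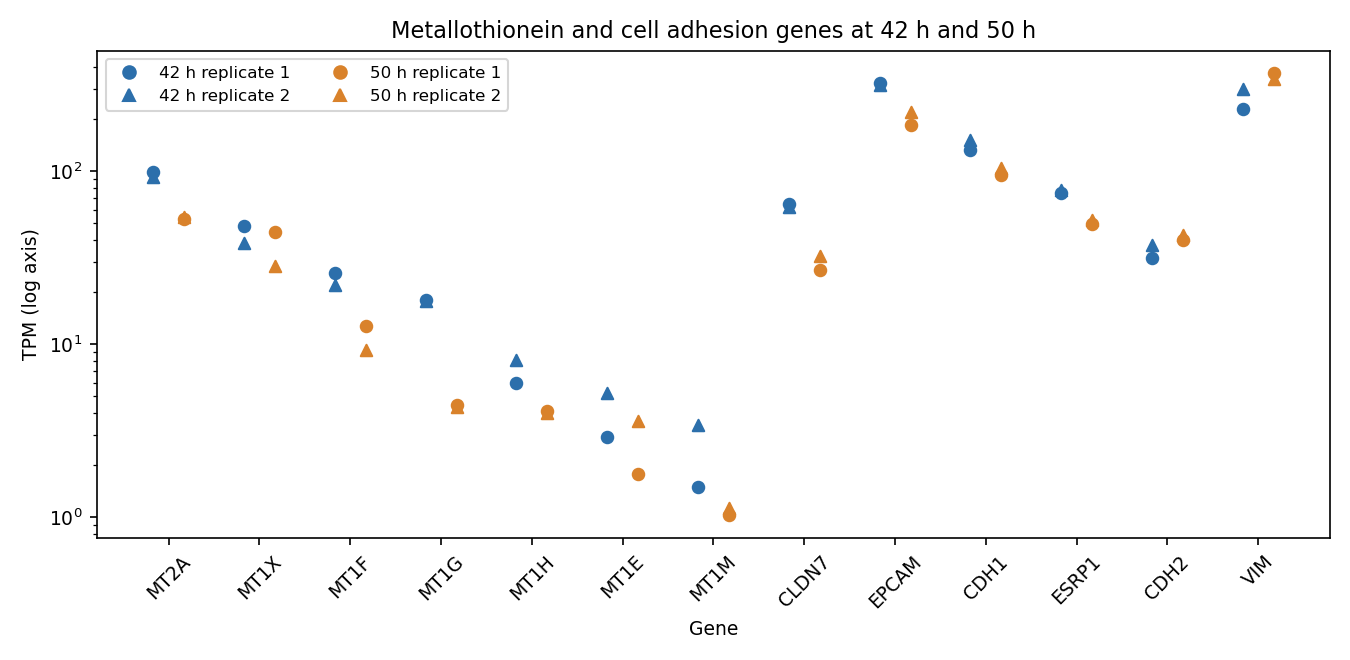
TPM (log axis) of 7 metallothionein and 6 adhesion or cytoskeleton genes in each of the 4 libraries, blue at 42 h, orange at 50 h, circles for replicate 1 and triangles for replicate 2. MT1G drops from 18.1 and 17.9 to 4.43 and 4.36 and CLDN7 from 64.7 and 62.2 to 26.9 and 32.4, while MT1X overlaps between the times.

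The last 2 genes that fell were pseudogenes. AC012368.3, a processed pseudogene (chr2:64208498-64208716), was listed at 8.34 and 4.55 TPM at 42 h and 0 at 50 h (adjusted p = 0.0357; 0.0388 with the block, 0.0280 to 0.259 over 18 alternatives). AL139082.2 (chr13:52167954-52168321) was listed at 4.18 and 7.45 TPM and then 0 (adjusted p = 0.0185; 0.0388 with the block, 0.000825 to 0.259 over 19 alternatives). It lies within the pseudogene MRPS31P5 on the same strand, which read 4.44 and 7.56 and then 8.66 and 5.80 TPM. The sums of the pair were 8.62 and 15.0 and then 8.66 and 5.80. Reads of pseudogenes may belong to their parent genes, so both are uncertain.

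None of 16 pluripotency genes was called, 5 were lower and 2 higher at an unadjusted p under 0.05, and 7 of 11 at 5 TPM or more were steady, close to the 67.0% of all genes at that level. At an unadjusted p under 0.05, 4.21% of all tested genes were lower and 5.14% higher. POU5F1, the core pluripotency factor OCT4, was steady at 1087 and 989 and then 842 and 892 TPM (-0.26 ± 0.08), and by 72 h read 354 and 388. TDGF1, a Nodal co-receptor, read 366 and 352 and then 156 and 189 TPM without overlap (-1.06 ± 0.24, adjusted p = 0.193). SOX2, shared by stem and neural cells, read 186 and 168 and then 238 and 233 TPM (0.41 ± 0.08, adjusted p = 0.161). NANOG read 1.92 to 2.77 TPM in the 4 libraries.

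Of 16 neural progenitor genes 0 were called, 4 were higher and 2 lower at an unadjusted p under 0.05, and 9 of 12 at 5 TPM or more were steady. Over all tested genes 5.14% were higher and 4.21% lower at an unadjusted p under 0.05. The steady share was near the 67.0% of all genes at 5 TPM or more. ZIC1, a zinc finger gene of the dorsal neural plate, read 1.85 and 5.33 and then 0.434 and 1.84 TPM, nearly touching between the times (-1.07 ± 0.46, adjusted p = 0.532). SOX1, an early neural gene, read 2.96 and 2.34 and then 6.48 and 5.73 TPM, and 56.5 and 45.2 at 72 h (0.96 ± 0.19, adjusted p = 0.151). PAX6, a defining neural progenitor gene, did not exceed 0.597 TPM in the 4 libraries. STMN2, a neuronal microtubule protein, read 1.47 and 1.56 and then 5.67 and 4.81 TPM (1.31 ± 0.20, adjusted p = 0.0639), while NEUROG1, a proneural factor, was listed at 0 in the 4 libraries.

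Markers of other cells the culture could hold were low or not called. Mesoderm and endoderm genes had 4 of 11 members tested, all 4 lower in the means, 2 at an unadjusted p under 0.05, and none called, and SOX17 was listed at 0. Their summed level was 24.7 and 24.2 TPM at 42 h, then 15.0 and 16.5 at 50 h. Over all tested genes 6590 of 14908 had a lower mean. At an unadjusted p under 0.05, 4.21% of all tested genes were lower and 5.14% higher. CXCR4, the chemokine receptor of definitive endoderm, read 5.71 and 5.30 and then 2.04 and 2.64 TPM (-0.97 ± 0.21, adjusted p = 0.185). Neural crest and dorsal genes had 7 of 11 tested, 3 with at least 5 TPM and 2 higher at an unadjusted p under 0.05. Their summed level was 79.5 and 72.4 and then 92.1 and 79.3 TPM. TFAP2A and PAX7, which define crest, did not exceed 0.795 TPM. Of 11 amnion, trophoblast and surface ectoderm genes 3 were tested, none with an unadjusted p under 0.05, and of 7 endothelium and blood genes 1, TEK, which was higher at that level and not called. The summed levels of the first list were 240 and 210 and then 209 and 196 TPM. Its 3 tested genes each had a mean of at least 5 TPM, so this list as a whole was not low. GABRP, which was not tested, reached 1.63 TPM. The summed levels of the second list were 15.1 and 17.9 and then 19.6 and 22.2 TPM, nearly all of it TEK. PECAM1 and CDH5, which define endothelium, did not exceed 0.620 TPM. The part of these cells in the results above was not tested.

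Other signalling pathways gave no call. In the FGF list 3 members were higher and 4 lower of 23 tested at an unadjusted p under 0.05. For this and the lists below, the shares over all tested genes at that level were 5.14% higher and 4.21% lower. FGF19, a ligand, read 11.6 and 10.3 and then 4.12 and 4.66 TPM (-1.15 ± 0.20, adjusted p = 0.108), and DUSP5, an ERK phosphatase, 34.2 and 31.2 and then 20.3 and 19.4 (-0.69 ± 0.12, adjusted p = 0.121). Both had risen by 42 h, and for both the steps differed (adjusted p = 0.0290 and 0.0335). FGFR1, the receptor with the most TPM, was steady at 618 and 598 and then 750 and 662. FGF8 read 9.29 and 7.79 and then 12.4 and 7.51 TPM, with overlap. Among 15 BMP genes BMP2 was apart at 4.23 and 3.59 and then 7.0 and 7.64 TPM (0.76 ± 0.16, adjusted p = 0.175), and ID3, a BMP target, overlapped at 336 and 281 and then 412 and 313. Of 13 Notch genes 1 and of 11 Hedgehog genes 0 had an unadjusted p under 0.05. Of 13 retinoic acid genes 3 were higher and 2 lower, with CYP26A1, which degrades retinoic acid, at 4.26 and 6.96 and then 2.92 and 6.67 TPM. In the axon guidance list 5 were higher and 1 lower of 19. NRP2, a semaphorin receptor, read 121 and 136 and then 179 and 190 TPM (0.52 ± 0.10, adjusted p = 0.127), and SEMA3E 1.99 and 2.32 and then 5.35 and 5.70 (1.05 ± 0.16, adjusted p = 0.0745).

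Of 20 sterol synthesis genes 13 had a lower mean at 50 h, against 6590 of 14908 over all tested genes, and none was called. At an unadjusted p under 0.05, 5 were lower and 1 higher, with a median of -0.19. By 42 h 6 had risen, and 12 fell from 50 h to 72 h. Over all tested genes 1.78% had risen by 42 h and 4.41% fell from 50 h to 72 h. From 42 h to 50 h 4.21% of them were lower and 5.14% higher at an unadjusted p under 0.05. HMGCS1, the synthase at the start of the pathway, read 248 and 227 TPM at 34 h, then 386 and 383 at 42 h, then 310 and 297 at 50 h, and its 2 steps differed (-0.34 ± 0.08 for 42 h to 50 h, step difference adjusted p = 0.0290). It still met the steady rule. CYP51A1, a sterol demethylase, read 58.2 and 55.6, then 81.7 and 83.1, then 59.1 and 57.9 TPM, and its steps differed too (adjusted p = 0.0481). In the amino acid and unfolded protein stress list 15 of 16 means were lower at 50 h, 4 at an unadjusted p under 0.05 and none called. In it 11 were steady, near the 67.0% of all genes with at least 5 TPM. CHAC1, an enzyme that degrades glutathione, read 48.4 and 41.5 and then 29.7 and 27.3 TPM (-0.63 ± 0.13, adjusted p = 0.151), and HSPA5, the chaperone of the endoplasmic reticulum, was steady at 289 and 275 and then 225 and 229.

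Genes with large differences in their means were often not called. Of the 10810 genes with at least 5 TPM, 83 had means at least 2-fold apart, 46 higher and 37 lower, and 10 of them were called. In 39 of the 83 the replicates of 1 of the times were themselves at least 2-fold apart. In the other 44, a division made after the values were seen, 21 were higher and 23 lower. Named from these after their values were seen, GAL, the neuropeptide galanin, read 43.8 and 54.6 and then 22.6 and 20.9 TPM (-1.14 ± 0.16, adjusted p = 0.0533). NFKB2, a subunit of NF-κB, read 20.6 and 25.3 and then 11.2 and 10.5 TPM (-1.01 ± 0.14, adjusted p = 0.0552). GRB14, an adaptor of receptor tyrosine kinases, read 28.6 and 26.9 and then 54.5 and 67.1 TPM (1.1 ± 0.16, adjusted p = 0.0600). SEMA3C, a secreted semaphorin, read 4.94 and 5.18 and then 12.4 and 11.4 TPM (1.09 ± 0.16, adjusted p = 0.0659). Each of these 4 was called under at least 1 alternative. Among genes not called, 1085 had an unadjusted p under 0.05, the same direction in both replicates and an average of 5 TPM or more at whichever time was higher. The 10 largest rises and 10 largest falls of these were taken, and 17 of these 20 were pseudogenes, readthrough genes or unnamed clone genes. The others were NODAL, MEF2B and SMARCA2. SMARCA2, an ATPase of the SWI/SNF chromatin remodeller, read 20 and 18.2 and then 5.05 and 6.28 TPM (-1.60 ± 0.27, adjusted p = 0.0986).

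Leaving out any 1 library lowered the count of 14 to between 1 and 8: it was 3 without either 34 h or either 72 h library, 8 without 42 h replicate 1 and 7 without 50 h replicate 2. AL034430.2 was called in all 8 of these fits, FST and MT1G in 6, and without 42 h replicate 2 or without 50 h replicate 1 AL034430.2 was the only call.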

How the data were processed

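The authors deposited TPM, a length-corrected abundance with a fixed total, per gene for 8 poly(A) RNA-seq libraries. The submitters' processing notes list Salmon 1.9.0 and GRCh38 without their roles, and the annotation and filters are not given in the sources used here. TPM keeps no depth, so the depth and the counting error are unknown. The 37951 rows were summed by gene name to 35940 genes. The 14908 genes reaching 1 TPM in 2 or more of 8 libraries were tested on log2(TPM + 1) by limma 3.58.1 in R 4.3.3, with a mean variance trend, 1 mean per time and Benjamini-Hochberg adjustment at 0.05. The method was tested on simulated data with independent noise and no batch effect, so that test does not speak for effects of the replicate batches. An exact permutation test of 2 against 2 libraries cannot go below p = 0.333. Gene positions are those of GENCODE 29 on GRCh38.

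The interval, the gene lists and the tests were chosen with earlier results of these data known. Named were called genes (1 is not reported here), the 10 largest rises and 10 largest falls among genes not called that had an unadjusted p under 0.05, at least 5 TPM and the same direction in both replicates, list members, and up to 10 genes per direction for the difference between steps. Other genes are marked as chosen after their values were seen. Replicate numbers are labelled as batches and the design text describes an independent replicate, so the numbers pair the libraries. The correlation of same-numbered deviations was 0.142 between 42 h and 50 h, 0.0949 and 0.195 between 34 h and those times, and -0.0445, -0.0779 and -0.104 between 72 h and 34, 42 and 50 h, so the pairing rests on the labels. Other scalings, filters, variance models, a replicate block and left-out libraries were tried.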

Additional observations from a re-analysis of the deposited data

Results flagged for a closer look

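The change from 42 h to 50 h differed from the change from 34 h to 42 h for 58 genes by limma's contrast between the 2 steps, 55 of them with a smaller or opposite change after 42 h. Of the 58, 57 were called between 34 h and 42 h and 4 between 42 h and 50 h. Both steps share the 42 h libraries. The count was 9 without 42 h replicate 1, of which 5 were smaller or opposite and 4 higher after 42 h. It was 6 without 42 h replicate 2, with 5 smaller or opposite, and 21 without 50 h replicate 2, with 17. UTRN, the gene of the cytoskeletal protein utrophin, was 1 of the 3 in the other direction, with 74.4 and 71.5 TPM at 34 h, then 43.5 and 47.7 at 42 h, then 72.0 and 83.9 at 50 h. ABCA1, a cholesterol exporter, read 11 and 9.09, then 3.04 and 3.91, then 7.08 and 6.98 TPM.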

How the results depend on the processing

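Of 14 calls between 42 h and 50 h (9 higher, 5 lower), other settings gave these counts. With no filter on low values there were 8 calls (4 higher), 4 of them among the 14, and with a mean of at least 5 TPM 24 (16 higher, 8 lower), 12 of them among the 14. TMM rescaling gave 19 (10 lower), quantile normalization 20 (11 lower) and leaving out mitochondrial genes 19 (10 lower), and each kept all 14. Without a variance trend there were 27 (14 higher, 13 lower), 9 of them among the 14, and with robust moderation 25 (13 lower), which kept all 14. The replicate block, which pairs the libraries by number, gave 7 (4 higher, 3 lower), all among the 14, and the calls it lost included PRTG, H2AFY2, STOML3, EFL1, CLDN7 and DKK4. Keeping Ensembl rows apart gave 4 (2 higher, 2 lower), all among the 14. The 42 h and 50 h libraries alone gave 0 (0 higher, 0 lower), with 1089 genes at an unadjusted p under 0.05, in a fit with 2 residual degrees of freedom against 4. Testing against a 1.5-fold change gave 1 (1 higher, 0 lower). Leaving out 1 library gave 1 to 8 calls, 1 to 5 higher and 0 to 3 lower, where the lone remaining library is assumed to vary like the others. Without 42 h replicate 1, 4 of 8 calls were among the 14, and without 50 h replicate 2, 5 of 7. The difference between steps, 58 genes with 55 lower, gave 22 (21 lower) with no filter, 38 (34 lower) without a trend, and 6 to 28 (5 to 26 lower) leaving out 1 library. Apart from fewer libraries or other genes tested, the cause was not tested. Steady genes numbered 4926 to 7138 leaving out 1 library. No called gene changed sign under these settings, but the majority of calls passed from higher to lower with TMM (9 against 10), quantile normalization (9 against 11), no mitochondrial genes (9 against 10) and robust moderation (12 against 13). Genes that were not called could change sign without 1 library. TPM gives no depth, so counting error for low genes such as DKK4 and WNT8A is unknown.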

Other observations

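MEF2B, a transcription factor gene, and BORCS8-MEF2B, a readthrough gene that includes it, had opposite values. MEF2B read 6.40 and 8.12 TPM at 42 h, then 1.79 and 1.40 at 50 h, and BORCS8-MEF2B read 1.35 and 0.910 and then 5.56 and 5.82. Their sum was 7.75 and 9.03 and then 7.34 and 7.21 TPM. The clone gene AL162151.2 was listed at 967 and 0 TPM at 34 h, 602 and 344 at 42 h, then 368 and 0 at 50 h. With a 0 in 1 library of a pair, its difference between 42 h and 50 h lay within the spread between replicates.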
